A study of Mus musculus and Homo sapiens with 9 samples.

Results

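The melanocyte lineage and pigment genes described here are 10 named genes, out of 21887 protein-coding genes on placed mouse chromosomes. They were given by name, and a gene was said to carry TDG where a peak summit lay inside it or within 1 kb of either end. For p53 the limit was 10 kb. The regulators are Mitf, Sox10 and Pax3, the melanin enzymes are Tyr, Tyrp1 and Dct, the melanosome proteins are Pmel, Mlana and Gpnmb, and the trafficking gene is Rab38.

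ChIP-seq, the sequencing of DNA recovered with an antibody from fixed chromatin, was used in this series to map the repair enzyme thymine DNA glycosylase (TDG) and the transcription factor p53. It holds 9 samples in 9 groups of 1, with 6 from the mouse melanoma line B16 and 3 from the human lung cancer line NCI-H1299. The peak lists used here came from 2 B16 libraries, with the HA antibody and with the p53 antibody, both from cells labelled Tdg HA knockin, whose own Tdg locus encodes a protein with an HA tag. The controls in B16 cells (input, IgG, HA antibody on WT cells and p53 antibody on Trp53 KO cells) were not analysed here, so whether a peak depends on the tag or on p53 was not tested. No treatment of the B16 cells and no clone were named in the labels. Each list stands for 1 library without a replicate, so no test between conditions was possible, and none was made.

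The TDG list held 3410 peaks and the p53 list held 126. Fold enrichment is the authors' value for a peak, the summit over the local background of the peak caller. Peak lists hold no expression, so the melanoma label could not be checked by the level of these genes. Totals of reads are not part of the lists. The reads at each TDG summit were therefore recovered from the deposited fold enrichment and p-value, and had a median of 24 over all TDG peaks.

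Melanocytes make melanin inside melanosomes, organelles that mature through stages and are passed on to keratinocytes. SOX10 and PAX3 activate Mitf, and MITF, a basic helix-loop-helix leucine zipper factor, binds E-box sequences such as CATGTG, the core of the M-box, at pigment genes. Mitf has several promoters spread along the gene. The M promoter, which melanocytes use, is the one furthest downstream and is driven in part by cyclic AMP through a CRE element. TDG removes thymine from mispairs with guanine, and oxidised methylcytosine, mostly at CG dinucleotides.

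Of the 10 genes, 4 carried TDG (Mitf, Pmel, Gpnmb and Rab38), against 14.8% of all protein-coding genes. Among the regulators, Mitf carried it and Sox10 and Pax3 did not. None of the 3 melanin enzyme genes carried it. No member had a p53 peak within 10 kb, where 0.489% of all protein-coding genes had one. With 10 genes and a background of this size, a single gene moves the share of members by 10 percentage points, and no p was computed.

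The 300 bases around a gene start, from 250 before it to 50 after it, were available from RefSeq (GRCm38.p6, the coordinates of mm10) for Mitf, Gpnmb, Tyr, Tyrp1 and Dct. No window was available for Sox10, Pax3, Pmel, Mlana and Rab38. CG content and motifs were therefore not read at these 5 genes, of which Pmel and Rab38 carried TDG. Mitf had 3 starts in the table and the others had 1 each. The sequences below compare starts with a TDG summit within 1 kb (the first start of Mitf, and Gpnmb) with starts that had none (the third start of Mitf, and Tyr). Capitals mark CG dinucleotides, the sites at which TDG is known to act.
Mitf, the first start (chr6:97806808-97807107, plus strand): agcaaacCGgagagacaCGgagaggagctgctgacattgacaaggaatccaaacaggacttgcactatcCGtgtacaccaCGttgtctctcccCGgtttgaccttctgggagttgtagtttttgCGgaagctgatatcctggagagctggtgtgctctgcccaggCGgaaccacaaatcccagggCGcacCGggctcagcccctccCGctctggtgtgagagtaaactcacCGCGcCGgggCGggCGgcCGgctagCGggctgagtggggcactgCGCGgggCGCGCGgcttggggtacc
Gpnmb start (chr6:49036268-49036567, plus strand): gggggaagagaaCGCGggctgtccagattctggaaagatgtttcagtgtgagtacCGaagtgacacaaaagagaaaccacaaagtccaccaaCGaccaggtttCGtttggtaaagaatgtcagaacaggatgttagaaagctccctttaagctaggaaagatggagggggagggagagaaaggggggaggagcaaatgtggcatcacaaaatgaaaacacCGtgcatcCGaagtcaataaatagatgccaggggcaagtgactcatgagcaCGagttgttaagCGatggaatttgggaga
Mitf, the third start (chr6:97991533-97991832, plus strand): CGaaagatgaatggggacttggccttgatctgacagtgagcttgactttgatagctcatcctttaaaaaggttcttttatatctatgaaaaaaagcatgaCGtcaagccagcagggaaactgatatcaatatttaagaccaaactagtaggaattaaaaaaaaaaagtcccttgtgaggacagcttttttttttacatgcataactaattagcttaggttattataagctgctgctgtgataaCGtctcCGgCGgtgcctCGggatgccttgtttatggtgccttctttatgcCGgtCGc
Tyr start (chr7:87493463-87493762, minus strand): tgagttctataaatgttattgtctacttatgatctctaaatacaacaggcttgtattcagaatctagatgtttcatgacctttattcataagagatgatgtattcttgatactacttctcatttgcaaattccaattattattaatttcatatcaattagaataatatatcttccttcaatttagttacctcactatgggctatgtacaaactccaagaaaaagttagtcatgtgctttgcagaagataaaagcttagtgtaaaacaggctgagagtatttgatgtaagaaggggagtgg

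The Mitf windows differed in base composition. The first held 22 CG dinucleotides and 62.7% G and C, whereas the third held 8 and 40.0%. The second Mitf window (chr6:97929567-97929866) held 5. The Gpnmb window held 9 CG dinucleotides and the Tyr window held none.

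Mitf (chr6:97807002-98021360), the master regulator of the melanocyte lineage, had 2 TDG peaks. The first (chr6:97806833-97807159) was 5.83-fold enriched with 25 reads at its summit. It lay across the first start, with the summit 85 bases upstream of that start and 29 bases outside the lower end of the gene. The second (chr6:97981558-97981940) was the strongest peak of any member, at 7.16-fold with 35 reads and a −log10 q of 15.1. It ranked 634 of 3410 in the TDG list.

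The second Mitf peak lay within the gene, 174.8 kb from its lower end. Its summit was 10018 bases upstream of the third start, which is the furthest downstream of the 3 in the table. No TDG peak overlapped the windows of the other two starts, and the second start was 51948 bases from the nearest summit. A further TDG peak stood 25579 bases beyond the upper end of Mitf (5.09-fold, 32 reads). TDG was therefore called at the CG-rich start at the far end of Mitf and at an interior position, and not at the start nearest the end of the gene.

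**Figure D1:**
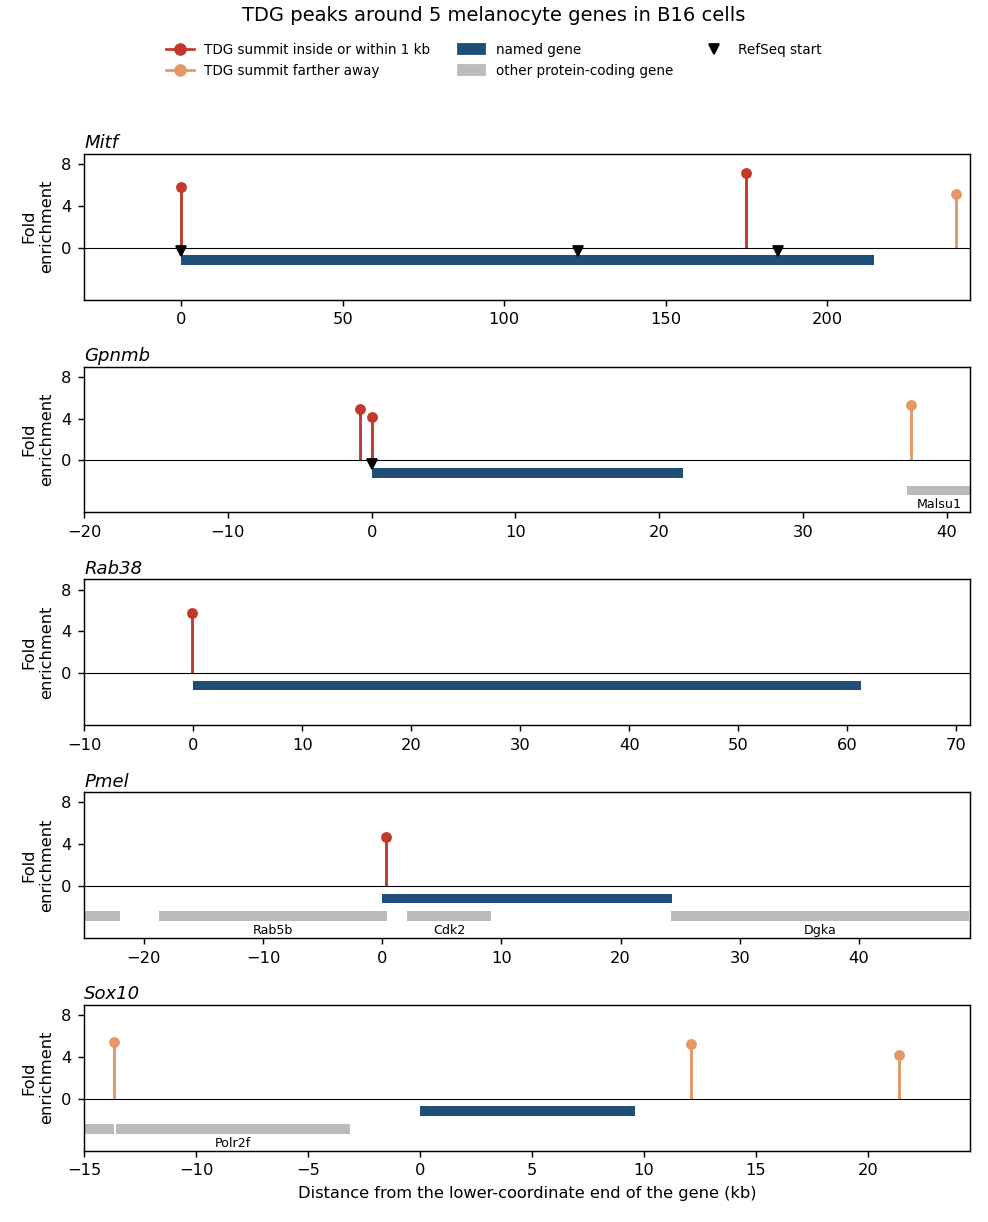
Position and fold enrichment of TDG peaks around Mitf, Gpnmb, Rab38, Pmel and Sox10; the x axis is the distance from the lower-coordinate end of each gene in kb and differs in scale between panels, and stems stand for TDG summits in 1 library. Mitf shows 1 summit at its first start and 1 upstream of the third start (7.16-fold), and the nearest summit to Sox10 lies 2527 bases outside the gene.

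Sox10 (chr15:79154913-79164490) encodes the SOX factor that activates Mitf and Dct. It carried no TDG summit by the 1 kb limit, but the nearest lay 2527 bases beyond its upper end, with a 5.21-fold peak (chr15:79166786-79167207) and 19 reads. In the mouse that is the side of the Sox10 promoter. The summit lay inside the noncoding gene Gm10863, 951 bases from its lower end. A second peak stood 11788 bases from Sox10 in the same noncoding gene, at 4.18-fold with 17 reads. Within 100 kb of Sox10 there were 8 TDG summits in all, the highest number at any member. Ap3d1, another gene of the pigment pathway, also had 8, and the number around all genes was not counted. On chromosome 15, which carries Sox10, 27.2% of protein-coding genes carried TDG.

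Pax3 (chr1:78101267-78197136) encodes a paired-box factor of neural crest and muscle progenitors. Its nearest TDG summit was 2621880 bases away, 84 bases inside the start of Chpf and 145 bases from the start of Tmem198 (6.72-fold). No TDG summit lay within 100 kb of Pax3. The 3 regulators thus ranged from a gene with its own peaks, through a gene with a peak just outside the limit, to a gene more than 2 Mb from any.

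The melanin enzymes had no TDG summit nearby. Their distances were not set against those of all protein-coding genes, and Pax3 lay farther from a summit than any of the 3. Tyr (chr7:87424771-87493512) encodes tyrosinase, which catalyses the rate-limiting step of melanin synthesis, and its nearest TDG summit was 936670 bases away. That summit was the one at Rab38, on the same chromosome. Tyrp1 (chr4:80834123-80851736), which encodes an oxidase of the eumelanin pathway, was 1661462 bases from its nearest summit. Dct (chr14:118012790-118052246), which encodes dopachrome tautomerase, was 885497 bases from its nearest, at the start of Dnajc3 (7.03-fold). None of the 3 had a TDG summit within 100 kb.

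The melanosome proteins differed. Gpnmb (chr6:49036518-49058182), which encodes a glycoprotein related to PMEL, had a pair of TDG peaks of low fold enrichment. The peak nearer the gene body (chr6:49036414-49036705) was 4.12-fold with 22 reads, and its summit lay 52 bases downstream of the RefSeq start. The recovered local background at this peak was 4.18, against a median of 2.56 for all TDG peaks. The other peak (chr6:49035497-49036045) was 4.95-fold with 18 reads and a background of 2.56, and its summit lay 803 bases upstream. That distance was the largest among the summits outside a gene that met the 1 kb limit, and the 2527 bases at Sox10 were the smallest that missed it. The Gpnmb peaks ranked 3204 and 2543 of 3410.

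Pmel (chr10:128695888-128720238) encodes the fibril protein of the melanosome, and its annotated span holds the whole of Cdk2. The TDG peak counted for it (chr10:128696084-128696554) was 4.70-fold with 17 reads and the lowest −log10 q of the member peaks, 4.37. The summit lay 301 bases inside the lower end of the Pmel span. It also lay 95 bases inside Rab5b (chr10:128677170-128696284), which is on the minus strand, and so beside the RefSeq start of that early endosome gene. The peak cannot be assigned to Pmel rather than Rab5b from its position, and without it 3 of the 10 genes carried TDG.

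Mlana (chr19:29697541-29708447), which encodes MART-1, a melanosome membrane protein, carried no TDG. Its nearest summit, 49287 bases away, lay at the start of Ermp1 (5.99-fold, 22 reads). Rab38 (chr7:88430273-88491572) encodes a small GTPase that carries tyrosinase family proteins to the melanosome. It had 1 TDG peak (chr7:88430048-88430406), 5.73-fold with 21 reads, and the summit lay 91 bases outside its lower end. No other annotated gene lay within 1 kb of that summit.

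**Figure D2:**
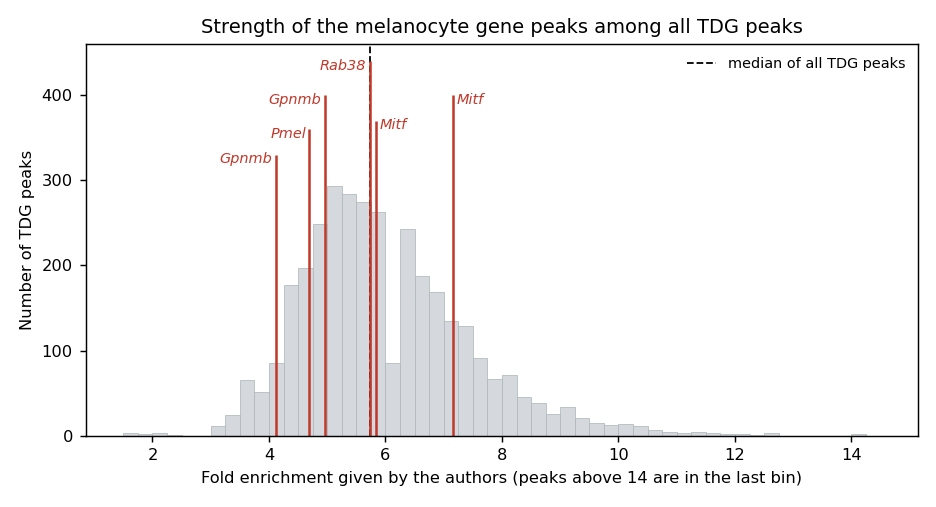
Fold enrichment of all 3410 TDG peaks (grey histogram, number of peaks in bins of fold enrichment) with the 6 peaks of the melanocyte genes as red lines and the median of all peaks as a dashed line. Both Mitf peaks (5.83 and 7.16-fold) lie above the median and the other 4 do not.

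The 6 member peaks were of ordinary to low strength within the TDG list. Their median fold enrichment was 5.34, with a range of 4.12 to 7.16, against a median of 5.74 and quartiles of 4.95 and 6.77 for all TDG peaks. Their widths ran from 292 to 549 bases, against a median of 420 for all. The recovered reads at the summit ran from 17 to 35. Both Mitf peaks lay above the median of the list, at percentiles 51.8 and 81.4, and the Rab38, Pmel and Gpnmb peaks lay at percentiles between 6.06 and 47.6. When the peaks were limited to fold enrichments at or above the list's median, Mitf alone of the 10 genes kept TDG. The Rab38 peak, at 5.734-fold, fell just below that median of 5.735.

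**Figure D3:**
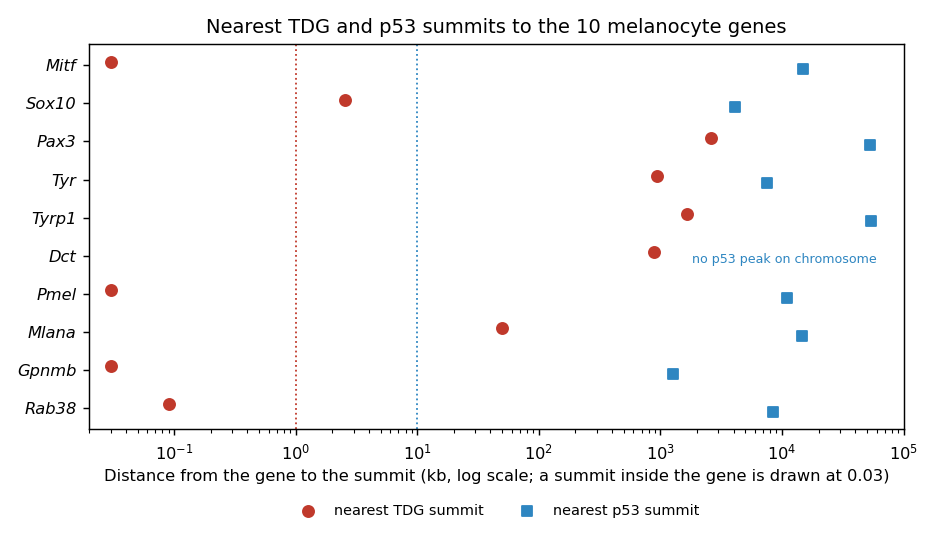
Distance in kb (log scale) from each of the 10 melanocyte genes to the nearest TDG summit (red circles) and the nearest p53 summit (blue squares), with dotted lines at 1 kb and 10 kb. The TDG distances run from 0 to 2622 kb and no p53 summit lies nearer than 1275 kb.

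The p53 list held nothing near these genes. The nearest p53 summit to any member was 1275 kb from Gpnmb. The next were 4068 kb from Sox10, 7470 kb from Tyr and 8475 kb from Rab38. At Pmel, Mlana and Mitf the distances were 10978, 14546 and 15019 kb, and at Pax3 and Tyrp1 they were 52942 and 54449 kb. Chromosome 14, which carries Dct, had no p53 peak. The count stayed at 0 of 10 with windows of up to 100 kb. The list is short, with 107 of 21887 protein-coding genes within 10 kb of a p53 summit, so 0 of 10 lies near that background.

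TDG was unevenly spread over the chromosomes that hold these genes. On chromosome 6, which carries Mitf and Gpnmb, 30.9% of protein-coding genes met the same rule, the highest share of any chromosome. The share was 27.2% on chromosome 15 (Sox10) and 17.5% on chromosome 1 (Pax3). It was 13.3% on chromosome 10 (Pmel), 13.2% on chromosome 7 (Tyr and Rab38) and 11.4% on chromosome 4 (Tyrp1). Chromosome 19 (Mlana) had 10.1% and chromosome 14 (Dct) had 3.29%, with 21 TDG peaks along its length. Against chromosome 6 alone, the 2 members with TDG there stand beside a background more than 2 times that of the genome. The part of the chromosome in these results was not tested.

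**Figure D4:**
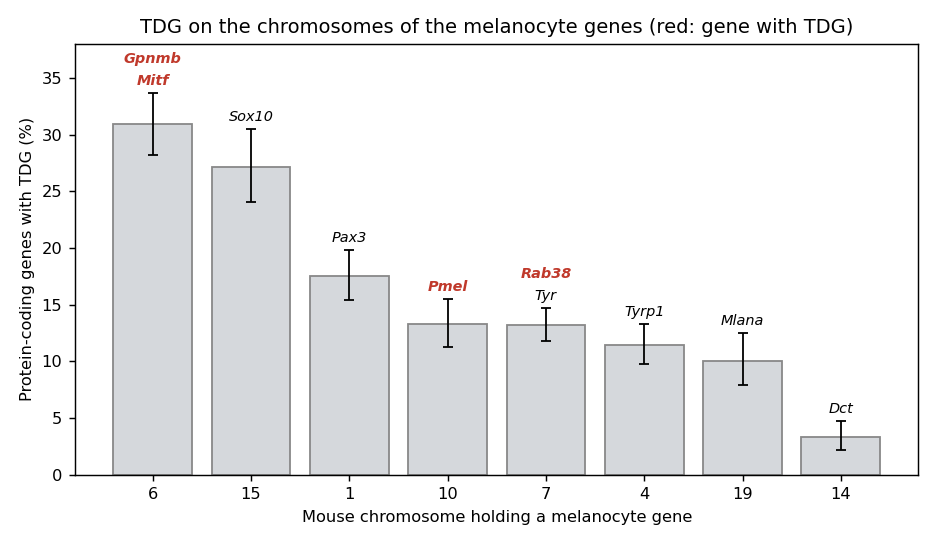
Share of protein-coding genes with a TDG summit inside them or within 1 kb, in percent, on the 8 chromosomes that hold melanocyte genes, with exact binomial 95% intervals that cover counting error only. Members with TDG are in red; chromosome 6 (30.9%) holds Mitf and Gpnmb, and chromosome 14 (3.29%) holds Dct.

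Gene length differed among the members as well. Mitf spans 214.4 kb, and of genes over 100 kb 15.4% met the rule. Of genes from 50 to 100 kb, the class of Pax3, Tyr and Rab38, 502 of 2516 met it (19.95%), the highest share of the 4 length classes. Of genes from 20 to 50 kb, the class of Dct, Pmel and Gpnmb, 18.8% met it, and of those up to 20 kb, the class of Sox10, Tyrp1 and Mlana, 11.9% did. A summit within 1 kb of a gene end was found in 4 of the 10 members, beside 12.3% of all protein-coding genes. Among genes that met the rule, all 4 members and 2689 of 3237 protein-coding genes had such a summit.

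The CG content of a start went with the share of starts that had a TDG summit within 1 kb. Over 21263 RefSeq starts of protein-coding genes, 13.0% had such a summit, and the median window held 13 CG dinucleotides. Of starts with 0 to 2 CG dinucleotides 0.469% had one (exact binomial 95% interval 0.278 to 0.740%), and Tyr was of this class. Of starts with 3 to 5, the class of Tyrp1 (3), Dct (5) and the second Mitf start (5), 1.15% had one. The class from 6 to 10 held Gpnmb and the third Mitf start and had 4.29%. The classes from 11 to 15 and from 16 to 20 held no member start and had 13.9% and 19.8%. With 21 or more, the class of the first Mitf start, 25.6% had one (interval 24.6 to 26.7%). The intervals treat starts as independent, although the 21263 starts belong to 17492 genes.

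**Figure D5:**
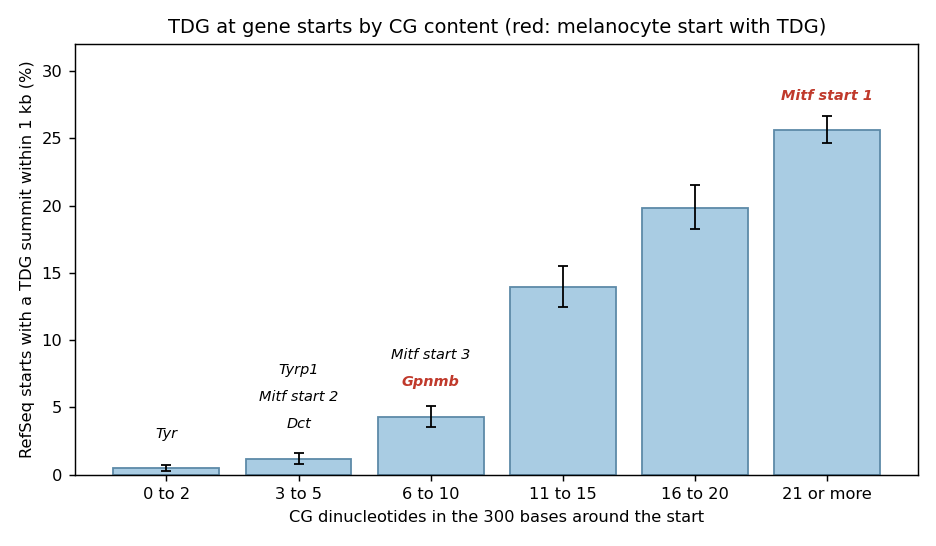
Share of RefSeq starts with a TDG summit within 1 kb, in percent, by the number of CG dinucleotides in the 300 bases around the start. The exact binomial 95% intervals cover counting error only and treat starts as independent. The 7 starts of Mitf, Gpnmb, Tyr, Tyrp1 and Dct are written above their classes, in red where TDG was present; the share runs from 0.469% to 25.6%.

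Of the 7 member starts, the first Mitf start and the Gpnmb start had a TDG summit within 1 kb. The first Mitf start was the richest in CG of the 7. Gpnmb, with 9, was in a class where few starts had TDG. The 5 starts without TDG held between 0 and 8.

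The windows were also searched for the M-box core CATGTG, for the E-box CACGTG and for the CRE sequence TGACGTCA, on both strands. No match overlapped another in these windows. CATGTG was found at Tyr, 21 bases before the start, and at Tyrp1, 46 bases before it. It was found at Dct both 150 bases before the start and, on the other strand, 232 bases before it. It was not found in the windows of Gpnmb and Mitf. Over all 21263 starts, 11.5% held CATGTG. The CRE sequence stood 153 bases before the third Mitf start and at none of the other 6 member starts, and 2.23% of all starts held it. CACGTG was found in none of the 7 windows and in 7.84% of all starts.

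The 3 melanin enzyme genes thus had the M-box core at a start poor in CG and no TDG, and the third Mitf start had the CRE sequence and no TDG. Among all starts with CATGTG, 6.97% had a TDG summit within 1 kb and the median window held 5 CG dinucleotides. Starts without it had 13.8% and a median of 14. For the CRE sequence the shares were 24.8% with it and 12.8% without it, at median CG counts of 23 and 13. These are counts of letters in the windows, and binding by MITF or CREB was not measured.

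Another 65 genes of the pigment pathway were examined by role. In all, 11 of the 65 carried TDG (16.9%), which is close to the 14.8% of all protein-coding genes. None had a p53 peak within 10 kb; Trpm1, a cation channel gene and MITF target, came nearest at 57.5 kb.

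Among 15 further regulators, 4 carried TDG (26.7%, beside 14.8% of all protein-coding genes). Tfeb, which encodes a relative of MITF that governs lysosome genes, had an 8.07-fold peak with 30 reads inside the gene (chr17:47762838-47763440), the strongest in either list of pigment genes. The other relatives of MITF, Tfe3 and Tfec, carried none. Tfe3 lies on chromosome X, which held 2 TDG peaks and where 0.104% of protein-coding genes met the rule. Creb1, which encodes the factor that links cyclic AMP to the Mitf M promoter, had a 6.02-fold peak with its summit 174 bases from its start. Tbx2, a T-box gene regulated by MITF, had 2 peaks of 4.87-fold and 5.73-fold, the weaker of them at its lower end, 246 bases from the noncoding gene 2610027K06Rik. Tfap2a, a neural crest factor gene, had a 4.95-fold peak inside the gene, 10777 bases from its nearest start.

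Among 21 trafficking genes, 5 carried TDG (23.8%, beside 14.8% of all protein-coding genes). Of these, 4 had it at a gene end (19.0% of the 21, beside 12.3% of all protein-coding genes). Over all 65 pathway genes the share at a gene end was 10.8%. By role it was 8.33% of signalling genes and 13.3% of the further regulators. It was 0% of channels and transporters and of MITF targets outside pigmentation. Ap3d1 (6.49-fold) and Ap3b1 (5.73-fold) encode subunits of the AP-3 adaptor that sorts tyrosinase, and each had its summit 139 bases from its start. At Ap3b1 the summit also lay in the noncoding gene Gm9776. Hps1 (7.29-fold) encodes a subunit of BLOC-3, the exchange factor for RAB38 and RAB32, and its summit lay 194 bases from a start and inside the noncoding gene Gm16244. Bloc1s1 (5.73-fold) encodes a subunit of BLOC-1, with its summit 270 bases from the start. Rab27a, the GTPase gene that ties melanosomes to the actin motor, had a 4.70-fold peak in the gene, 356 bases from its second start. Rab32, the closest relative of Rab38, carried no TDG.

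Each role holds few genes, the further regulators and trafficking genes included. No difference from the 14.8% of all protein-coding genes is read from the count of any role. Of 12 signalling genes, Pomc, which encodes the precursor of melanocyte-stimulating hormone, carried TDG (7.29-fold), with the summit 601 bases from its upper end and 5097 bases from its start. Mc1r, Kit, Ednrb and the agouti gene carried none. Of 9 melanosome channels and transporters, Tpcn2 carried it (7.29-fold), at a site that also lies in Smim38, and Slc45a2, Oca2 and Slc24a5 did not. None of 8 MITF targets outside pigmentation carried TDG, among them Cdk2, whose lower end lay 1749 bases from the Pmel summit. In this pathway the 6 starts with TDG within 1 kb held a median of 14.5 CG dinucleotides, against 18.5 for the 74 starts without it.

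None of the listed markers of other cell types in skin, 5 keratinocyte, 5 fibroblast, 4 endothelial and 5 blood cell genes, met the rule. A count of 0 of 19 allows a share of up to about 15.8%, by the approximation that a count of 0 allows up to 3. The 14.8% of all protein-coding genes lies close to this limit, so no difference from it is read. Carrying TDG is not a measure of expression, so these counts do not check which cells were present.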

How the data were processed

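Peak lists of 2 B16 libraries were used, the HA and the p53 antibody in cells labelled Tdg HA knockin. Per the submitters' processing notes, the build was mm10 and the tools included MACS2, Bowtie2, Trim Galore, Picard, ChIPseeker and deepTools, with no role, order or version given for any of them. In the sources used here, neither the control nor the threshold of the peak caller is given. The authors deposited the narrowPeak layout, with fold enrichment (a ratio to local background), −log10 p and −log10 q of the summit, and a score. The deposited score repeats the −log10 q at 10 times its size without decimals, as all 3410 TDG and all 126 p53 peaks showed. Values were used only within their own list.

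The lists give no read totals. Summit reads and local background were recovered by solving the fold and Poisson p formulas together, where fold is the ratio after 1 is added to both values. The scale of 0.924 was chosen to bring the summits nearest to whole reads. Where several solutions fitted a peak, the one nearest to whole reads was kept. Summits of 3409 TDG peaks then lay within 0.05 of whole reads in 100% of cases. That share follows in part from these choices and is not an independent check. Low reads limit how finely the fold enrichments separate peaks.

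Gene spans and gene starts were those of RefSeq for GRCm38.p6, read with Python 3.11.15, pandas 2.3.3 and SciPy 1.17.1. All 10 members and 84 further names matched, with agouti under its older symbol. Gene assignment and read recovery were tested on simulated data. The members and lists were chosen with earlier results of these data known. All members and every other listed gene with TDG were named by rule. Counts are described beside all protein-coding genes, with no test. Intervals of shares are exact binomial 95% intervals, except the limit for a count of 0, which is an approximation (3 divided by the number of genes). Alternatives covered the windows, peak overlap, a −log10 q of at least 5, fold enrichments at or above the median and other measures of strength. The CG classes and motif searches were added once the promoter windows had been read.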

Additional observations from a re-analysis of the deposited data

How the results depend on the processing

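Some alternatives changed the size of the counts, and no direction was tested. For the 65 other pathway genes, the share was 16.9% beside a background of 14.8% by the rule. With summits within 1 kb of a gene end only, it was 10.8% beside 12.3%. Every value here comes from 1 library a list with low read numbers at the summits. The 4 members with TDG were 3 to 5 under the other windows, peak overlap and a −log10 q of at least 5, which drops Pmel, and a 3 kb window adds Sox10. With fold enrichments at or above the list's median, 1 member (Mitf) remained, within 1 kb of a gene end as well, with 2 peaks, and 6 of the other pathway genes. That 1 of 10 members lies near the 7.96% of all protein-coding genes, and no difference from that share is read. Both counts depend on peaks close to the cut. Rab38, and Ap3b1, Bloc1s1 and Tbx2 among the pathway genes, each had a peak at 5.734-fold, just below the median of 5.735. Counting only summits inside genes left 3 member peaks, since the starts' upstream summits drop out by construction. The background of 14.8% became 8.59% inside genes only, 15.8% at 3 kb, 19.1% at 10 kb, 13.2% with the −log10 q limit, 7.96% with the fold limit and 7.79% over all annotated genes. A 100 kb window gave 1 pathway gene with a p53 peak, Trpm1. The median percentile of the member peaks, 35.6, was 23.6 over gene-end peaks alone, as the interior Mitf peak is left out. No paired analysis was possible because each group has 1 library.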
